A study of Mus musculus with 16 samples.

Results

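Transcript levels in the corpus callosum of mice returned to a regular diet after 4 weeks of cuprizone (CPZ) were compared with those of mice at the end of 4 weeks of CPZ. The members were chosen by sample title, as the 6 columns of the processed table titled for remyelination and the 4 titled for demyelination at 4 weeks, which gave 10 of the 16 arrays of the series. All mice were male wild-type C57BL/6, 7 to 8 weeks old when included. The methods match the age of the untreated mice to the 4-week group, so mice sampled after regular diet need not have had the same age, and age cannot be told apart from time on regular diet. Mice of the 4-week group (4 arrays) had been fed chow with CPZ, given as 0.2 to 0.4% in the sample labels and 0.2% in the methods, for 4 weeks. Mice of the regular-diet group (6 arrays) had received the same feeding and then regular diet for 2 or 14 days, and the labels do not tell which arrays belong to which time. The 6 arrays are therefore a mix of 2 times, and no array was assigned to a time. Each difference named for a gene comes with the values of the 6 arrays, with their range or, in square brackets after the difference, with the lowest and highest of the 6 levels. Untreated mice (3 arrays) were used as background, and the 3 arrays from 2 weeks of CPZ entered only the filter on dim probes and the shared estimate of the spread. The question addressed by the comparison is how the demyelinated corpus callosum differs from the same region after CPZ was withdrawn and remyelination could proceed.

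CPZ is a copper chelator. Fed to mice, it kills mature oligodendrocytes, the cells that wrap axons in myelin, and the loss is pronounced in the corpus callosum, the large white matter tract between the hemispheres. Microglia and astrocytes gather in the lesion and clear myelin debris, while oligodendrocyte precursors divide and mature. When CPZ is withdrawn, the new oligodendrocytes synthesise cholesterol, galactolipids and myelin proteins and wrap the axons again.

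The tissue was bulk RNA, so fewer cells of a type and less RNA per cell cannot be told apart in any value below. All values are log2 values relative to the median of the 3 untreated arrays for the same probe, so 0 is the untreated level, and a difference is the mean of the 6 regular-diet arrays minus the mean of the 4 arrays at 4 weeks. Probes well above background made up 59.2 to 66.2% of all probes at 4 weeks, 64.95 to 72.2% after regular diet and 57.3 to 71.0% in untreated mice. The number of arrays limits the precision. The methods give 3 to 6 mice per condition, but the labels call each array a replicate and tie none to a mouse, so p-values measure the spread between these arrays. For 14 of the 16 samples, the scanner file recorded under the sample was not the array that matched the sample's column of the processed table. The groups used here are those of the processed table. The number printed in the label of each matched array equalled the place of its column in all 16 cases. Oligodendrocyte, microglial, astrocyte and neuronal markers (Mbp, Mog, P2ry12, Aqp4 and Snap25 among them) were well above background on all 13 arrays of the 3 groups, and so were the choroid plexus markers Ttr, Kl and Folr1.

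No gene with a name passed the test between the groups. In the limma fit over all 16 arrays with Benjamini-Hochberg adjustment, 1 of 20603 genes and transcripts was called higher after regular diet (0.00485%) and 0 were called lower, at an adjusted p under 0.05 and a 2-fold difference. The call was AK037579, a transcript without a gene name in the tables used here. Its values were 0.89, 0.58, 0.73, 0.32, 0.44 and 0.94 on the regular-diet arrays and -1.77, -2.09, -1.89 and -1.95 on the 4-week arrays. The groups did not overlap, and at 4 weeks the probe was well above background on 0 of 4 arrays. Its level after regular diet was at least 1.55-fold higher, with an adjusted p of 0.019 in limma. For this bound, each 4-week array was given the dimmest signal that still counted as well above background, or the probe's own where that was higher. Of the untreated arrays, replicate 1 had -1.61 for this transcript and the others 0.21 and 0.00, and only 1 of the 3 was well above background. The probe passed the filter on dim probes through the regular-diet group, and the 2-fold limit was met by its fitted difference of 2.57 (log2) and not by its bound. With a filter on all arrays of both groups, this transcript was not tested and 0 genes and transcripts were called.

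Among the 13982 named genes tested, 0 were called by limma, 920 had an unadjusted p under 0.05 and were higher after regular diet (6.58%), and 1834 were lower (13.1%). The methods' test, an analysis of variance with Tukey's comparison, was run with the 6 regular-diet arrays as 1 group. The study kept 2 and 14 days of regular diet apart, so its own count can differ. The test called 3 genes and transcripts, of which 2 had names. The values of the 6 regular-diet arrays all lay above the 4 values at 4 weeks for 302 named genes (2.16%) and all below them for 572 (4.09%), but under quantile normalization these counts were 399 and 364. Among 6621 transcripts without a gene name, the counts were 724 above (10.9%) and 144 below (2.17%), and 163 and 135 where probes had to be well above background on all arrays of both groups. The median difference over all named genes was -0.05, and 6189 of the 13982 had a difference above 0. The counts above 0 given for each list below are to be read against this one. In size, 382 named genes differed by at least 2-fold upwards (2.73%) and 98 downwards (0.701%). Of these, 80 and 14 also had no overlap. Counted by probe, 1169 of 27778 lay above (4.21%) and 950 below (3.42%). The count of called genes and transcripts rested on single arrays at 4 weeks, being 1506 (1479 higher, 27 lower) without 4-week array 1 and 322 (87 higher, 235 lower) without 4-week array 3. It was 0 without 4-week arrays 2 or 4 or without regular-diet arrays 1, 2, 3, 5 or 6, and 1 without regular-diet array 4. Without the 3 arrays with the lowest share of probes well above background (untreated 1 and 4-week arrays 2 and 3), an alternative chosen after seeing the data, 983 were called (374 higher, 609 lower). The counts of named genes with no overlap were then 1700 higher and 2277 lower, over a 4-week group of only 2 arrays.

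**Figure D1:**
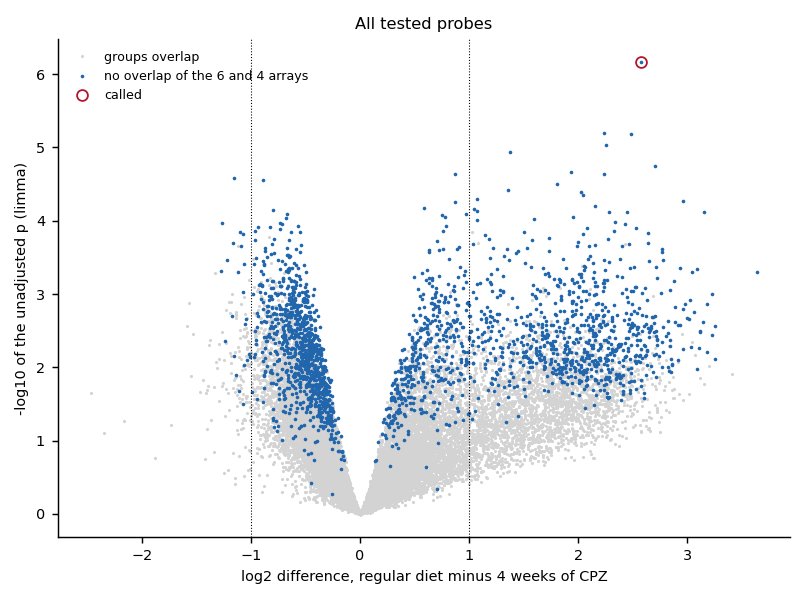
Each point is a tested probe, with its log2 difference (regular diet minus 4 weeks of CPZ) on the horizontal axis and -log10 of the unadjusted limma p on the vertical axis. Dotted lines mark 2-fold. Probes whose 6 and 4 arrays do not overlap are blue, and the red ring marks AK037579 at 2.57, the only call.

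The named genes of the lowest p in each direction, with no overlap and measured well above background on all 10 arrays, stood at adjusted p values of 0.070 to 0.078 in limma and were not called. Pmm2, which encodes a phosphomannomutase of protein glycosylation, had the lowest p among those higher after regular diet. Its difference was 0.87 (SE 0.14, adjusted p = 0.070 in limma with Benjamini-Hochberg adjustment), with values from 0.15 to 0.64 on the 6 arrays and from -0.74 to -0.22 at 4 weeks. The other probe of Pmm2 gave -0.07, so its probes disagree in sign. Atat1, the acetyltransferase of alpha-tubulin, had the largest difference of the 10, at 1.57 (SE 0.31), and its 3 probes ranged from 0.19 to 1.57. It ran from 0.34 to 0.89 after regular diet and from -1.69 to -0.42 at 4 weeks. Rtel1, a DNA helicase of telomere maintenance, differed by 1.18 [-0.58 to 0.21] and Arhgef1, an exchange factor for RhoA, by 1.14 [-0.28 to 0.60]. The same list held Iffo1 (1.07 [-0.47 to 0.50]), the N-terminal acetyltransferase Naa40 (1.03 [0.04 to 0.33]), the kinase Pask (0.97 [0.26 to 0.63]), the copper transporter Slc31a2 (0.91 [0.18 to 0.64]), the splicing factor Luc7l2 (0.78 [-0.21 to 0.07]) and Fam76b (0.75 [0.08 to 0.33]). Their probes ranged from 0.62 to 0.91 for Slc31a2, from 0.24 to 0.78 for Luc7l2 and from 0.19 to 0.75 for Fam76b. On untreated array 1, Atat1, Rtel1, Arhgef1, Iffo1 and Naa40 were at -1.17, -1.05, -1.06, -0.74 and -0.93, within or near the 4-week range. The same held for Pask, Fam76b, Slc31a2, Pmm2 and Luc7l2, at -0.34, -0.44, -0.31, -0.22 and -0.59. All 10 were between 0.00 and 0.71 on the other untreated arrays. Over the tested probes, untreated array 1 had a median absolute difference of 0.30 and 0.29 from 4-week arrays 2 and 3. Its median absolute difference from each of the other untreated arrays was 0.44.

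In the other direction, Bex1 had the lowest p, with a difference of -1.15 (SE 0.19, adjusted p = 0.070 in limma). It ran from -1.27 to -0.50 after regular diet and from -0.16 to 0.69 at 4 weeks, and the untreated arrays had 0.00, -0.15 and 0.07. All 6 regular-diet arrays were thus below the untreated arrays as well. Htr7, a serotonin receptor gene, had the largest difference of these 10, at -1.26 (SE 0.24), with 0.65 to 1.13 at 4 weeks and -0.86 to 0.19 after regular diet. Ppp2r5e, a regulatory subunit of protein phosphatase 2A, differed by -0.67, and its 6 values (-0.77 to -0.30) lay below the 3 untreated values. The others were 2210016L21Rik (-0.96 [-1.15 to -0.51]), the olfactory receptor gene Olfr123 (-0.93 [-0.51 to 0.08]), Ankrd12 (-0.87 [-1.13 to -0.68]), Hdgfl3 (-0.79 [-0.99 to -0.65]), Kbtbd7 (-0.73 [-0.32 to 0.06]), Cfap36 (-0.67 [-0.56 to -0.25]) and the splicing factor gene Htatsf1 (-0.64 [-0.34 to -0.13]). Probes ranged from -0.87 to -0.02 for Ankrd12 and from -0.79 to -0.30 for Hdgfl3. The other probe gave -0.36 for Kbtbd7 and -0.13 for Ppp2r5e. Without untreated array 1 and 4-week arrays 2 and 3, 7 of these 20 genes passed the test, namely Bex1 (-1.38), 2210016L21Rik (-1.29), Htr7 (-1.23) and Olfr123 (-1.03) among those lower and Atat1 (1.24), Arhgef1 (1.12) and Slc31a2 (1.09) among those higher. In that fit, 1.82% of all named genes were called lower and 0.685% higher. As the 20 were picked for a low p on largely the same arrays, their calls are no independent evidence.

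**Figure D2:**
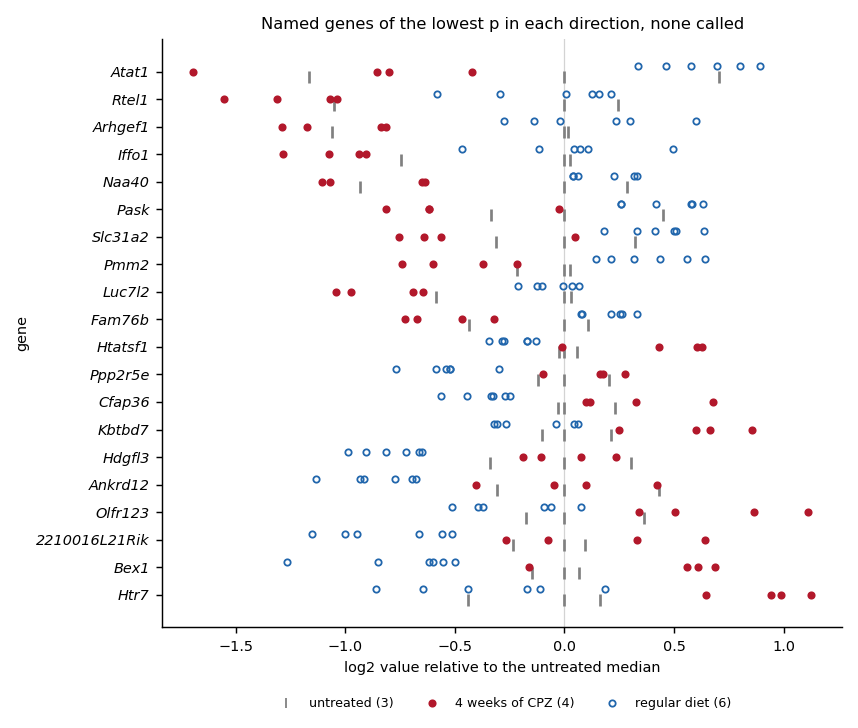
Log2 values relative to the untreated median (horizontal axis) of the 20 named genes of the lowest p, 10 in each direction, with 1 row per gene. Red dots are the 4 arrays at 4 weeks of CPZ, blue rings the 6 regular-diet arrays and grey ticks the 3 untreated arrays. The red and blue symbols of a gene do not overlap, by the rule that chose the genes, and none of the 20 was called.

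The 6 regular-diet arrays differed among themselves, and the way they did so differed between gene lists. Over the tested probes, the median absolute difference between 2 arrays of the group ranged from 0.13 (arrays 4 and 5) to 0.41 (arrays 2 and 4), over 15 pairs. Among the 6 pairs at 4 weeks it ranged from 0.34 to 0.73, and among the 24 pairs between the groups from 0.30 to 0.68. The median SD over all tested probes was 0.28 after regular diet and 0.42 at 4 weeks, and 4.36% of these probes had an SD above 1 after regular diet against 14.2% at 4 weeks. Of 12866 named genes well above background on all 10 arrays, the order was the other way, as 632 (4.91%) had an SD above 1 over the regular-diet arrays, against 375 (2.91%) at 4 weeks.

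The 10 named genes with the largest SD over the 6 arrays, picked after their values were seen, were Mal, Ppp1r14a, Kcne2, Ch25h, Cst7, Trib3, Gdf15, Slpi, Opalin and S1pr5. Mal, which encodes a proteolipid of myelin, had an SD of 2.74. Its values were -4.93, -5.22 and -3.92 on arrays 1 to 3 and -0.17, 0.02 and 0.80 on arrays 4 to 6, against -4.73, -2.73, -3.20 and -3.73 at 4 weeks. Ch25h, cholesterol 25-hydroxylase, reached 5.70 and 5.88 on arrays 1 and 2 and had 0.76, 1.07, 2.17 and 0.55 on arrays 3 to 6, against 0.48 to 2.87 at 4 weeks. Gdf15, a stress-induced cytokine, had 4.02, 4.69 and 4.61 on arrays 1 to 3 and 0.77, -0.38 and -0.11 on arrays 4 to 6, with 2.23 to 6.02 at 4 weeks. Mal was within or below the 4-week range on arrays 1, 2 and 3, and only arrays 1 and 2 stood above that range for Ch25h.

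**Figure D3:**
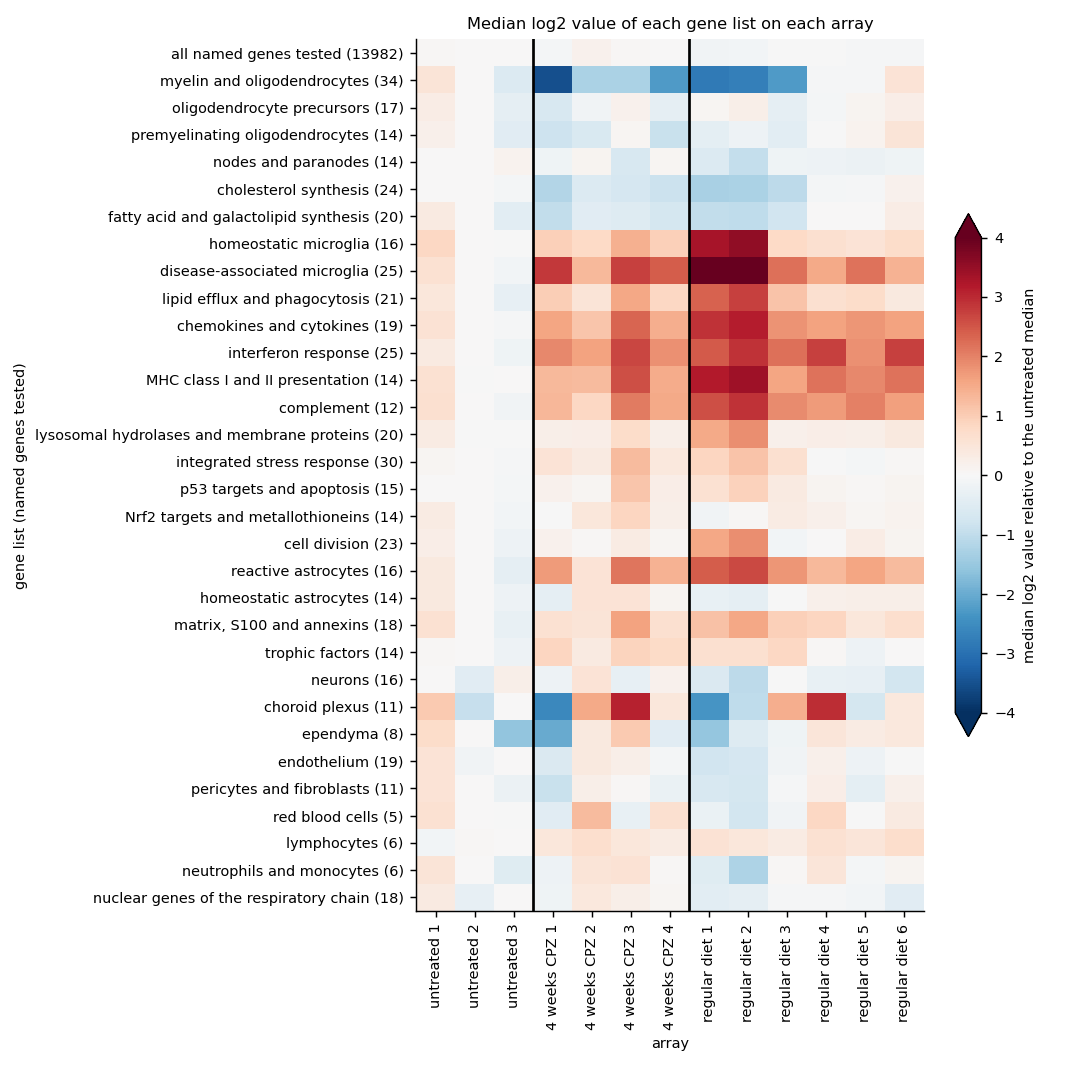
Median log2 value, relative to the untreated median, of the tested members of each gene list (rows, with the number of members) on each untreated, 4-week and regular-diet array (columns). Red is above and blue below the untreated median, and the scale ends at -4 and 4. The myelin row is at -2.28 or below on regular-diet arrays 1 to 3 and between -0.06 and 0.53 on arrays 4 to 6, and the microglial rows are highest on arrays 1 and 2.

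Genes of myelin and mature oligodendrocytes were higher on average after regular diet, but the difference was smaller than the spread over the 6 arrays and no member was called. Of 34 tested members, 31 had a difference above 0 and 11 were at least 2-fold higher (2.73% of all named genes), with a median of 0.79 against -0.05 over all named genes. Without untreated array 1 and 4-week arrays 2 and 3, the list median was 1.68. Only Hapln2 had an unadjusted p under 0.05 (6.58% of named genes were so on the higher side). Mbp, myelin basic protein, was -3.33, -3.16, -2.37, -0.31, -0.24 and 0.03 on arrays 1 to 6 and -4.66, -1.46, -1.28 and -2.45 at 4 weeks. Arrays 4, 5 and 6 lay above every 4-week array and within the untreated range (-0.66 to 0.37), while arrays 1, 2 and 3 lay within the 4-week range. The Mbp difference was 0.90 (SE 0.84, adjusted p = 0.52 in limma), and its 3 probes ranged from -0.20 to 0.90. It was 1.99 (SE 1.04) without untreated array 1 and 4-week arrays 2 and 3.

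The surface glycoproteins Mog and Mag differed by 1.00 (SE 1.11) and 0.72 (SE 0.88). In both, the first 3 arrays were between -4.76 and -2.59 and the last 3 between -0.13 and 0.65. Mog and Mag differed by 1.93 (SE 1.47) and 1.81 (SE 1.09) without untreated array 1 and 4-week arrays 2 and 3. With the replicate number as a block, they differed by -0.089 and -0.11. Ninj2 was between -3.17 and -2.37 at 4 weeks, a narrow range, and the array values of -3.03, -2.87 and -2.81, then 0.25, 0.01 and 0.65, gave a difference of 1.44 (SE 0.70, adjusted p = 0.22 in limma). Hapln2, which links the matrix at nodes of Ranvier, had the lowest p of the list (1.65, SE 0.74, adjusted p = 0.19 in limma). It was -2.57, -2.65 and -1.76 on arrays 1 to 3 and 0.33, -0.20 and 0.61 on arrays 4 to 6. Nipal4 alone in the list had no overlap between the groups, and it was lower after regular diet, by -0.76 [-1.64 to -0.42] (SE 0.40), while its other probe gave 1.02. Over all named genes, 4.09% had no overlap on the lower side.

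Counted over the list, 0, 0, 1, 31, 29 and 32 of the 34 members lay above all 4 arrays at 4 weeks on regular-diet arrays 1 to 6. Over all named genes these shares were 18.1, 22.4, 11.2, 15.1, 13.3 and 17.4%. Relative to the untreated arrays, 33, 33 and 34 of the 34 were below all 3 on arrays 1 to 3, and 2, 7 and 0 on arrays 4 to 6. Over all named genes these shares were 40.4, 39.6, 25.6, 23.1, 25 and 31.4%. On array 6, 16 members were above all 3 untreated arrays (21.1% of all named genes). The list median was -2.81, -2.75, -2.28, -0.04, -0.06 and 0.53 on the 6 arrays and -3.51, -1.25, -1.26 and -2.27 at 4 weeks. The 4-week arrays thus differed among themselves as well, with array 1 lowest.

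**Figure D4:**
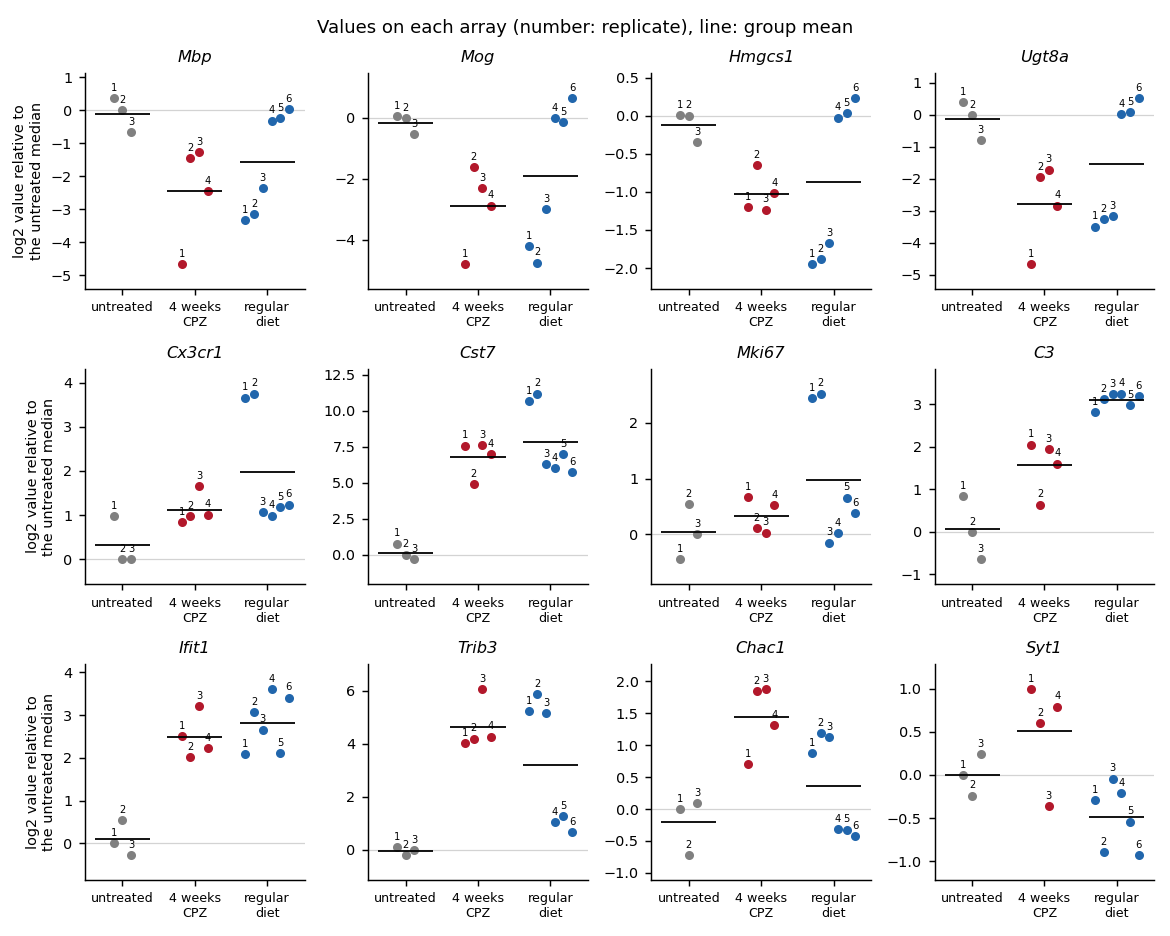
Log2 values relative to the untreated median (vertical axes, with a range of their own for each gene) of 12 genes on untreated (grey), 4-week (red) and regular-diet (blue) arrays. Numbers are replicates and lines group means. For Mbp, Mog, Hmgcs1 and Ugt8a, regular-diet arrays 4 to 6 lie above all 4-week arrays, for Cx3cr1, Cst7 and Mki67 arrays 1 and 2 do, and for C3 all 6 do.

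The oligodendrocyte lineage before myelination gave smaller differences with less spread. Of 17 tested genes of oligodendrocyte precursors, 14 had a difference above 0 and the median was 0.28, or 0.58 without untreated array 1 and 4-week arrays 2 and 3. Of 14 genes of premyelinating oligodendrocytes, 13 were above 0, with a median of 0.47. No member was called. Myt1 and Vcan (0.75 [-0.49 to 0.54]) among precursor genes and Gpr17, Enpp6 and Bmp4 among premyelinating genes had an unadjusted p under 0.05, all on the higher side (6.58% of all named genes). Myt1, a zinc finger factor of the precursor stage, was the only member of either list with no overlap, with 0.01 to 0.43 on the 6 arrays against -0.77 to -0.33 at 4 weeks. Over all named genes, 2.16% had no overlap on the higher side. The Myt1 difference was 0.66 (SE 0.16, adjusted p = 0.086 in limma). Pdgfra, the growth factor receptor that marks precursors, differed by 0.28 [-0.32 to 0.27] (SE 0.22) and Olig2, a factor of the whole lineage, by 0.29 [-0.67 to 0.57] (SE 0.47), which turned to -0.03 without 4-week array 1. Sox10, a factor of the lineage through maturation, differed by 0.65 [-1.59 to 0.73] (SE 0.52). Without untreated array 1 and 4-week arrays 2 and 3, Pdgfra, Olig2 and Sox10 differed by 0.58, 0.98 and 1.37. Cspg4, the NG2 proteoglycan of precursors and pericytes, was 1.93 and 2.23 on arrays 1 and 2 and between -0.46 and 0.26 on arrays 3 to 6, against -0.52 to -0.03 at 4 weeks.

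Gpr17, a receptor of cells committed to differentiate, was 0.03, 0.20, -0.73, -0.30, 0.21 and -0.03 after regular diet and -1.59, -1.06, -0.04 and -1.33 at 4 weeks. Without 4-week array 3, which had -0.04, the groups would not overlap. The difference was 0.90 (SE 0.33, adjusted p = 0.13 in limma), and the other probe of Gpr17 gave 0.35. Enpp6, a choline phosphodiesterase of newly forming oligodendrocytes, was -1.54, -1.32, -1.51, -0.38, -0.01 and 0.53 on the 6 arrays. At 4 weeks it was -4.34, -2.27, 0.08 and -2.30, again with array 3 apart. The probe was not well above background on 4-week array 1, so the -4.34 is no measured level and no difference is given. Bmp4, a secreted growth factor made by premyelinating cells, differed by 0.67 [-0.15 to 0.33] (SE 0.18, adjusted p = 0.091 in limma). Bcas1 differed by 0.16 [-1.85 to 0.51] (SE 0.59). The Bcas1 difference turned to -0.25 without 4-week array 1, -0.09 without regular-diet array 6 and -0.17 with slide as a fixed block. It was 0.96 without untreated array 1 and 4-week arrays 2 and 3. Without the 3 arrays with the lowest share of probes well above background, Gpr17 (1.36, adjusted p = 0.031 in limma), Tns3 (1.28 [-0.78 to 0.14]) and Enpp6 passed the test, which is 3 of the 14 (21.4%) against 0.685% of all named genes on the higher side. For Enpp6, array 1 is 1 of the 2 arrays left at 4 weeks, so its call rests on a level that was not measured. For Gpr17, Tns3 and Enpp6, the highest 4-week values were on the arrays left out, so these calls are no independent evidence. Over all arrays, Tns3 differed by 0.63 (SE 0.33, adjusted p = 0.25 in limma). The median of the premyelinating list was then 0.91.

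Genes of lipid synthesis followed the arrays in much the way myelin genes did. Of 24 tested genes of cholesterol synthesis and uptake, 18 had a difference above 0, with a median of 0.18, and none was called. The median was 0.39 without untreated array 1 and 4-week arrays 2 and 3. The list median was -1.30, -1.28 and -1.05 on regular-diet arrays 1 to 3 and -0.09, -0.05 and 0.18 on arrays 4 to 6, against -1.17, -0.54, -0.68 and -0.85 at 4 weeks. On arrays 4, 5 and 6, 21, 21 and 22 of the 24 lay above all 4-week arrays (15.1, 13.3 and 17.4% of all named genes). On arrays 1, 2 and 3, in contrast, 14, 14 and 9 lay below all 4-week arrays, where the shares over all named genes were 28.6, 30 and 18.4%.

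Hmgcs1, the synthase that makes HMG-CoA, was -1.94, -1.88 and -1.68 on arrays 1 to 3, all below the 4-week arrays (-1.20, -0.64, -1.23 and -1.02). On arrays 4 to 6 it was -0.02, 0.04 and 0.23, all above them. Its mean difference was 0.15 (SE 0.42, adjusted p = 0.85 in limma), and it turned to -0.024, -0.036 or -0.075 when array 4, 5 or 6 was left out. The difference was 0.26 [-1.85 to 0.09] for Sqle, squalene epoxidase, and 0.40 [-1.28 to 0.11] for Dhcr7, which makes cholesterol in the last step.

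Of 20 genes of fatty acid and galactolipid synthesis, 16 had a difference above 0 and 4 were at least 2-fold higher, with a median of 0.17. Without untreated array 1 and 4-week arrays 2 and 3, the median was 0.41, and Acly, ATP citrate lyase, was called lower (-1.05, adjusted p = 0.035 in limma), 1 of the 20 (5%) against 1.82% of all named genes. In all arrays Acly differed by -0.50 [-0.77 to 0.24]. Its lowest 4-week values (0.05 and -0.34) were on the arrays left out, so its call is no independent evidence. Ugt8a, which makes galactosylceramide, the major glycolipid of myelin, had -3.50, -3.25 and -3.15 on arrays 1 to 3 and 0.02, 0.09 and 0.52 on arrays 4 to 6, against -4.65 to -1.71 at 4 weeks. Elovl1, an elongase of very long chain fatty acids, had the lowest p of the list (1.02 [-1.42 to 0.53], SE 0.33, adjusted p = 0.11 in limma). It was above all 4-week arrays (-1.46, -1.44, -0.86 and -1.46) on 5 of the 6 arrays, the exception being array 3 with -1.42. Cers2, the ceramide synthase for very long chains, differed by 1.27 [-1.71 to 0.59] (SE 0.50, adjusted p = 0.15 in limma), and Fasn, Elovl6 and Acsl1 by 0.15 [-0.96 to 0.14], 0.15 [-1.59 to 0.28] and 0.10 [-1.05 to 0.13].

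Genes of microglia were higher on average after regular diet, and the difference came with high values on 2 of the 6 arrays. Of 16 homeostatic microglial genes, 14 had a difference above 0, with a median of 0.55, and Mef2c (-0.89 [-1.02 to 0.31]) and Sall1 (-0.50 [-0.38 to 0.66]), both transcription factors, had an unadjusted p under 0.05 on the lower side (2 of 16, 12.5%, against 13.1% of all named genes). All 25 tested genes of disease-associated microglia, the state taken around damaged myelin, had a difference above 0, with a median of 0.66, and Lyz2, Csf1 and Cybb (0.89 [3.17 to 4.44]) had an unadjusted p under 0.05 (6.58% of all named genes on the higher side). No member of either list was called or free of overlap. Cx3cr1, the fractalkine receptor, was 3.66 and 3.75 on arrays 1 and 2 and 1.06, 0.99, 1.18 and 1.24 on arrays 3 to 6. At 4 weeks it was 0.84, 0.98, 1.66 and 1.01, and the untreated arrays had 0.97, 0.00 and 0.00. Arrays 1 and 2 thus stood above all others, and arrays 3 to 6 lay within the 4-week range. The difference was 0.86 (SE 0.56, adjusted p = 0.35 in limma).

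P2ry12, a purinergic receptor of resting microglia, was 2.33 and 2.42 on arrays 1 and 2 and between -0.30 and 0.37 on the others, against 0.37 to 0.78 at 4 weeks. Tmem119 was 2.61 and 2.86 on these arrays and -0.56 to 0.46 on the others, and the receptor gene Csf1r was 3.20 and 3.57, then 0.60 to 0.96. Counted over the list, 14, 14, 0, 0, 0 and 2 of the 16 lay above all 4-week arrays (18.1, 22.4, 11.2, 15.1, 13.3 and 17.4% of all named genes). On arrays 3 to 6, 8, 8, 7 and 5 lay below all of them, where 18.4, 20.1, 20.2 and 28.6% of all named genes did.

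Cst7, cystatin F, a protease inhibitor almost absent from resting microglia, had 10.68 and 11.18 on arrays 1 and 2, 6.30, 6.02, 6.98 and 5.75 on arrays 3 to 6, and 7.58, 4.89, 7.61 and 6.97 at 4 weeks. In untreated mice it was well above background on 0 of 3 arrays. Its difference between the groups was 1.05 (SE 1.04, adjusted p = 0.54 in limma). Trem2, the lipid-sensing receptor of microglia, was 5.15 and 5.64 on arrays 1 and 2 and 1.91 to 2.58 on the others, against 1.58 to 3.37 at 4 weeks, and the difference was 0.58 (SE 0.72), which turned to -0.11 under quantile normalization. The differences were 0.82 [1.89 to 5.91] for its adaptor Tyrobp, 0.79 [5.72 to 7.88] for the integrin Itgax and 1.85 [3.51 to 8.39] (SE 0.99) for the glycoprotein Gpnmb, the largest of the list, and Itgax turned to -0.14 under quantile normalization. Lyz2, lysozyme of myeloid cells, which is closely similar to Lyz1, had the lowest p (1.40, SE 0.54, adjusted p = 0.14 in limma). It was 5.25, 5.72, 4.30, 3.59, 3.92 and 2.70, against 2.68, 2.11, 4.12 and 2.47 at 4 weeks. Csf1, the growth factor of microglia, differed by 0.83 [0.13 to 1.63] (SE 0.33, adjusted p = 0.15 in limma). Without untreated array 1 and 4-week arrays 2 and 3, the differences of Cst7, Trem2, Tyrobp, Gpnmb and Csf1 fell to 0.55, 0.34, 0.73, 1.18 and 0.66. Those of Itgax and Lyz2 rose to 0.89 and 1.67. On arrays 1 and 2, all 25 members lay above all 4-week arrays (18.1 and 22.4% of all named genes), and on arrays 3 to 6 it was 2, 1, 1 and 1 (11.2, 15.1, 13.3 and 17.4%). Still, 22, 22, 24 and 20 of the 25 were above all 3 untreated arrays on arrays 3 to 6, where 21.4, 18.6, 16.5 and 21.1% of all named genes were.

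Genes of lipid efflux and phagocytosis had a median difference of 0.39 over 21 members, of which 18 were above 0. Abca1, which exports cholesterol, differed by 0.23 and was 2.87, 3.26 and 2.04 on arrays 1 to 3 and 0.71, 1.13 and 0.76 on arrays 4 to 6, against 0.83 to 2.36 at 4 weeks. Abcg1, its partner in efflux, differed by 0.38 [-0.44 to 0.65], the lipid droplet protein gene Plin2 by 0.21 [0.52 to 3.92] and Mertk, a receptor for dying cells, by 0.43 [0.31 to 2.58]. Abca1 and Plin2 turned to -0.12 and -0.21 under quantile normalization, to -0.01 and -0.10 without 4-week array 2 and to -0.06 and -0.20 without regular-diet array 2. Lysosomal genes (20 tested, 19 above 0) had a median of 0.46. The gene of the lowest p, Smpd1, went against this direction (-0.48 [-0.51 to 0.03], SE 0.16, adjusted p = 0.12 in limma). An unadjusted p under 0.05 was found for 2 members on the higher side and 1 on the lower (6.58 and 13.1% of all named genes). Ctss, cathepsin S, was 3.89 and 4.25 on arrays 1 and 2 and 1.58 to 2.04 on the others, against 1.29 to 2.63 at 4 weeks. Hexa, Lamp1 and Lamp2 differed by 0.66 [0.49 to 3.48], 0.44 [-0.19 to 0.94] and 0.23 [0.41 to 1.88]. On arrays 1 and 2, 15 and 18 of the 20 lysosomal genes lay above all 4-week arrays (18.1 and 22.4% of all named genes), and on arrays 3 to 6 at most 2 did (11.2, 15.1, 13.3 and 17.4%).

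The complement gene C3 differed from this order, since it was high on all 6 arrays. C3, the central component of the cascade, was 2.81, 3.12, 3.24, 3.25, 2.98 and 3.20 after regular diet and 2.05, 0.64, 1.95 and 1.61 at 4 weeks, with no overlap (2.16% of all named genes on the higher side). The difference was 1.54 (SE 0.53, adjusted p = 0.12 in limma). It was called in the fit of the 10 arrays alone (adjusted p = 0.043 in limma), in which 0.136% of named genes were called higher. C4b, of the classical pathway, was 1.85, 1.92, 1.83, 1.97, 2.35 and 2.81, against 0.75, 0.88, 2.19 and 1.08, where 4-week array 3 overlapped. Its difference was 0.90 (SE 0.32, adjusted p = 0.13 in limma). C1qa and C1qb, the starter subunits made by microglia, were instead highest on arrays 1 and 2 (C1qa 4.63 and 5.16, with 1.98 to 2.41 on the others and 1.47 to 3.23 at 4 weeks). All 12 complement genes tested had a difference above 0, with a median of 0.70.

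Genes of MHC class I and II presentation had a median difference of 0.70, and all 14 tested were above 0. The class I genes H2-D1, H2-K1 (0.82 [1.72 to 3.53]) and H2-Q4 (0.95 [1.79 to 3.53]) had an unadjusted p under 0.05 (6.58% of all named genes on the higher side). B2m, the light chain of class I, differed by 0.66 [2.09 to 4.32] (SE 0.47), H2-D1, a class I heavy chain of a family of similar genes, by 0.73 [1.59 to 3.00] (SE 0.34) and the immunoproteasome subunit Psmb9 by 0.57 [1.75 to 3.81]. Cd74, the invariant chain of class II, differed by 0.56 and was highest on arrays 4, 5 and 6 (3.54, 3.20 and 2.95), with 2.35, 2.28 and 1.46 on arrays 1 to 3. On all 6 arrays at least 13 of the 14 were above all 3 untreated arrays (16.5 to 28.3% of all named genes, by array). Chemokines and cytokines (19 tested, 16 above 0) had a median of 0.52, which was -0.22 under quantile normalization. The chemokine genes Ccl3, Ccl4 and Ccl2 differed by 0.86, 0.75 [4.76 to 8.53] and 0.71 [2.15 to 4.65]. Under quantile normalization Ccl3 and Ccl4 turned to -0.40 and -0.32. Ccl3 was 8.89 and 9.32 on arrays 1 and 2 and 4.77 to 6.34 on the others, against 4.65 to 6.66 at 4 weeks. Il1b, interleukin 1 beta, was 1.99 to 3.95 after regular diet and 1.58 to 2.59 at 4 weeks, but its probe was well above background on only 3 of the 4 arrays there and on 0 of 3 untreated arrays.

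Interferon-stimulated genes stayed above the untreated level on nearly all regular-diet arrays. Of 25 tested, all had a difference above 0, with a median of 0.51, and none was called or free of overlap. Stat2 and Oas2 had an unadjusted p under 0.05 (6.58% of all named genes on the higher side), but at 4 weeks the Oas2 probe was well above background on only 2 of 4 arrays. On regular-diet arrays 1 to 6, 25, 25, 25, 25, 24 and 25 of the 25 were above all 3 untreated arrays. The shares of all named genes above them were 25, 28.3, 21.4, 18.6, 16.5 and 21.1%. The list median was 2.44, 2.88, 2.21, 2.73, 1.82 and 2.74 and did not follow the order of the myelin genes, and at 4 weeks it was 1.92, 1.60, 2.69 and 1.83. Ifit1, an RNA-binding antiviral protein, was 2.08, 3.07, 2.66, 3.60, 2.10 and 3.40, against 2.51, 2.02, 3.21 and 2.23, and differed by 0.33 (SE 0.40). Isg15, a ubiquitin-like modifier, differed by 0.08 (SE 0.39), and both turned under quantile normalization (to -0.08 and -0.40). Isg15 ran from 2.13 to 3.18 after regular diet and from 1.93 to 3.45 at 4 weeks. The transcription factor Irf7 differed by 0.43 [1.25 to 3.06] (SE 0.38). Stat2, a factor of the interferon-activated complex, had the lowest p of the list (0.60, SE 0.18, adjusted p = 0.10 in limma), with 0.25 to 0.76 after regular diet and -0.51 to 0.33 at 4 weeks. Cxcl10, a chemokine induced by interferon, differed by 0.45 [4.46 to 5.91] (SE 0.51) and by -0.30 under quantile normalization.

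The promoters of these genes were searched for a motif. The core of the interferon-stimulated response element, taken as 2 copies of TTTC with any 2 bases between them, was searched on both strands in the 250 bases before the gene start (RefSeq, GRCm38.p6). It was found in 10 of the 21 members with a promoter in that table (47.6%), and in 978 of 32851 promoters overall (2.98%). Stretches from 4 members are shown because they carry the motif, which is in capitals and is read along the strand of the gene, as copies of GAAA where it lies on the other strand. They are Ifit1 (chr19:34640761-34640818, plus strand), Isg15 (chr4:156200863-156200920, minus strand, overlapping matches), Stat2 (chr10:128270252-128270309, plus strand) and Rsad2 (chr12:26456539-26456596, minus strand), an antiviral enzyme gene. A match is a description of these letters and no measurement of binding.
Ifit1: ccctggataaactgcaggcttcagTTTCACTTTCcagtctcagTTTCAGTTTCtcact
Isg15: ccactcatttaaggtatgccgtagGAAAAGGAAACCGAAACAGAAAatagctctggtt
Stat2: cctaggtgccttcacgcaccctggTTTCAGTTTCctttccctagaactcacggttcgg
Rsad2: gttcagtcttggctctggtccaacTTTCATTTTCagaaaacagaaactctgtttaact

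Genes of the integrated stress response, which slows translation and induces amino acid synthesis in stressed cells, were lower on average after regular diet. Of 30 tested, 23 had a difference below 0 and 5 were at least 2-fold lower (0.701% of named genes), with a median of -0.30 and none called. The median was -0.14 without untreated array 1 and 4-week arrays 2 and 3. There were 5 with an unadjusted p under 0.05 on the lower side (13.1% of all named genes), namely Chac1, Asns, Sars, Wars (-0.47 [-0.34 to 0.50]) and Nars (-0.46 [0.01 to 0.55]), and none on the higher side. Asns and Sars had no overlap (4.09% of named genes had none on the lower side). Trib3, a pseudokinase induced by this response, was 5.22, 5.88 and 5.16 on arrays 1 to 3 and 1.05, 1.28 and 0.67 on arrays 4 to 6. At 4 weeks it was 4.01, 4.20, 6.06 and 4.27, and the untreated arrays ran from -0.19 to 0.10. Arrays 1 to 3 lay within the 4-week range and arrays 4 to 6 below it, still above the untreated arrays. The difference was -1.42 (SE 1.01, adjusted p = 0.38 in limma), and the other probe gave -0.45.

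Chac1, which degrades glutathione, was 0.87, 1.18 and 1.12 on arrays 1 to 3, -0.31, -0.32 and -0.42 on arrays 4 to 6 and 0.70, 1.85, 1.88 and 1.31 at 4 weeks. Its difference was -1.08 (SE 0.37, adjusted p = 0.12 in limma). Asns, asparagine synthetase, was 0.18, 0.11, 0.43, -0.34, -0.33 and -0.93 on the 6 arrays, all below the 4-week values of 0.56, 0.76, 0.66 and 0.55. Its difference was -0.78 (SE 0.23, adjusted p = 0.10 in limma). Sars, the seryl-tRNA synthetase gene, differed by -0.34 [-0.21 to 0.21] (SE 0.13, adjusted p = 0.15 in limma), Ddit3, which encodes CHOP, by -0.40 [-0.05 to 1.56] (SE 0.41) and the factor Atf5 by -1.01 [0.16 to 3.16] (SE 0.64). The Ddit3 difference turned to 0.05 without untreated array 1 and 4-week arrays 2 and 3. On arrays 4, 5 and 6, 17, 21 and 20 of the 30 lay below all 4-week arrays, and on arrays 1 to 3 it was 4, 4 and 3, where 20.1, 20.2 and 28.6% and then 28.6, 30 and 18.4% of all named genes did. On arrays 1 to 3, 22, 24 and 23 of the 30 were above all 3 untreated arrays (25, 28.3 and 21.4% of all named genes).

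The motif TGATGNAA, the core of the element bound by ATF4 with its partners, was searched in the same way. It was found in 9 of 30 members with a promoter (30%) and in 1134 of 32851 promoters overall (3.45%). Stretches of 4 members are shown with the motif in capitals, as its reverse complement where it lies on the other strand. They are Chac1 (chr2:119351025-119351080, plus strand), Asns (chr6:7693210-7693256, minus strand), Nupr1 (chr7:126625549-126625604, minus strand), a stress-induced chromatin protein gene, and Atf3 (chr1:191183412-191183467, minus strand), a factor of the response. Atf3 had the highest difference of the list, at 0.74 [0.97 to 4.03] (SE 0.64), against the direction of the list median.
Chac1: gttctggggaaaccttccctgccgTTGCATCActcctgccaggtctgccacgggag
Asns: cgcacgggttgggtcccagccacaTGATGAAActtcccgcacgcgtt
Nupr1: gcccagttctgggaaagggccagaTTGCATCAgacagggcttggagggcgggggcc
Atf3: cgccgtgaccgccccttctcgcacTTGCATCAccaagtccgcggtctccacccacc

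Of 15 p53 targets and apoptosis genes, 6 had a difference above 0, with a median of -0.03, which turned to 0.17 without 4-week array 3 and to 0.013 with median centring. Cdkn1a, the cell cycle inhibitor p21, was 2.05, 2.72 and 2.44 on arrays 1 to 3 and -0.18, -0.31 and -0.42 on arrays 4 to 6, against 1.01 to 3.81 at 4 weeks and -0.00, 0.94 and 0.00 in untreated mice. Its difference was -0.98 (SE 0.72). Bbc3, Bax and Mdm2 differed by -0.24 [0.10 to 0.94], 0.19 [0.17 to 1.02] and 0.35 [-0.11 to 0.25]. Of 14 Nrf2 targets and metallothioneins, 9 were below 0, with a median of -0.34, but the median was 0.05 without 4-week array 3 and 0.01 without the 3 arrays with the lowest share of probes well above background. Mt3, a brain metallothionein that binds zinc and copper, had no overlap (4.09% of all named genes on the lower side), with 0.15 to 0.76 after regular diet and 0.80 to 1.38 at 4 weeks, and differed by -0.52 (SE 0.22, adjusted p = 0.16 in limma). Mt1, Mt2, Nqo1 and Hmox1, which degrades haem, differed by -0.49 [-0.07 to 0.43], -0.47 [0.23 to 0.91], -0.36 [-0.33 to 1.15] and 0.04 [1.00 to 3.77]. The last 2 turned to 0.21 and -0.20 without untreated array 1 and 4-week arrays 2 and 3.

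Genes of cell division were high on 2 of the 6 arrays. Mki67, the proliferation marker Ki-67, was 2.45 and 2.53 on arrays 1 and 2, -0.15, 0.03, 0.66 and 0.38 on arrays 3 to 6, and 0.67, 0.10, 0.03 and 0.52 at 4 weeks. Its difference was 0.65 (SE 0.52, adjusted p = 0.44 in limma). The kinase Cdk1, well above background on only 2 of the 4 arrays at 4 weeks, was 2.98 and 3.19 on arrays 1 and 2 and -0.26 to 0.48 on the others, against -0.00 to 1.1 at 4 weeks. Ccnb1, the cyclin of mitotic entry, was 1.55 and 1.66, then -0.43 to 0.61, and Top2a, the topoisomerase of chromosome segregation, was 1.93 and 2.07, then -0.58 to 0.19. Of 23 tested, 22 had a difference above 0, with a median of 0.45, and none was called. Bub1 (-0.42 [-0.30 to 0.02]) had an unadjusted p under 0.05 on the lower side (13.1% of all named genes), but its other probe gave 0.58. On the 6 arrays, 19, 22, 0, 0, 5 and 1 of the 23 lay above all 4-week arrays, against 18.1, 22.4, 11.2, 15.1, 13.3 and 17.4% of all named genes. Arrays 1 and 2 were thus the ones with high Mki67, high Cx3cr1 and high Cst7, and they lay on different slides (slides 3 and 2).

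**Figure D5:**
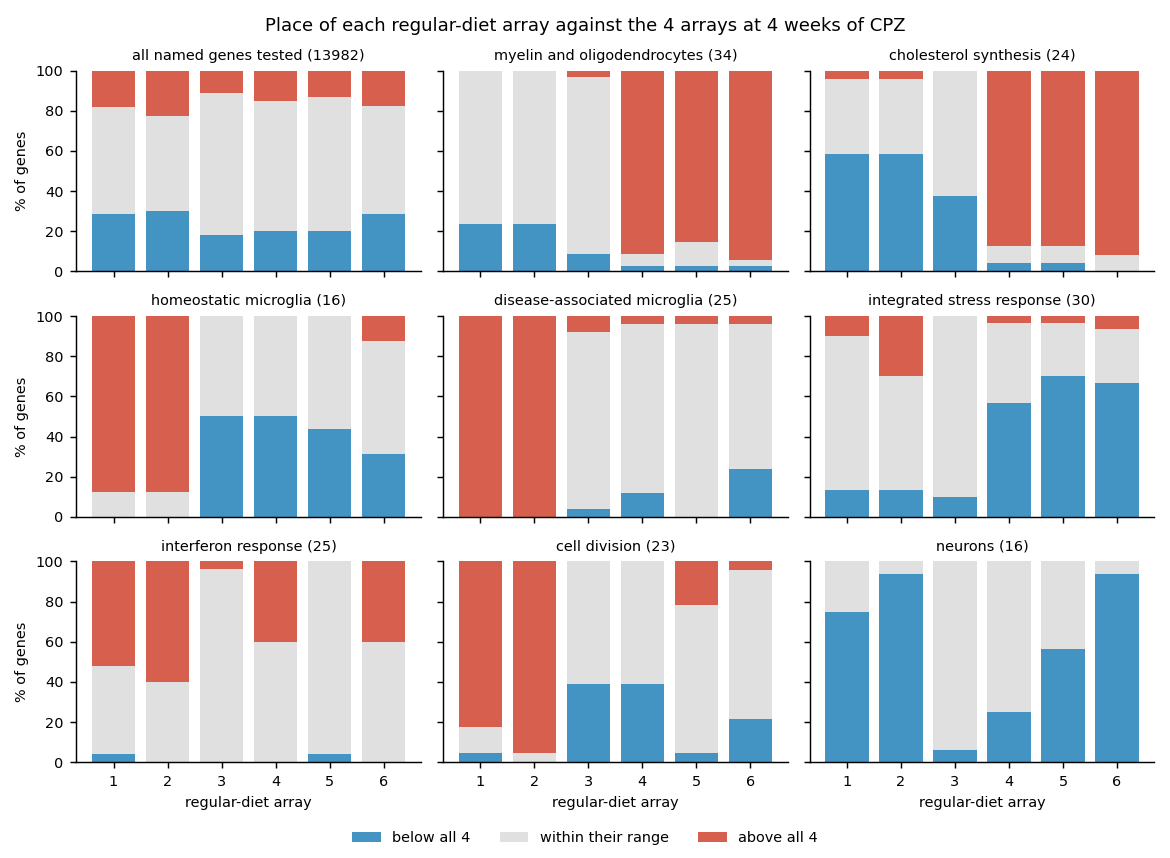
For each regular-diet array (horizontal axis), the percent of tested genes of a list that lay below all 4 arrays at 4 weeks of CPZ (blue), within their range (grey) or above all 4 (red), for 8 lists and all 13982 named genes. Myelin and cholesterol genes are mostly red on arrays 4 to 6, microglial and cell division genes on arrays 1 and 2, and the blue share of the stress response is largest on arrays 4 to 6.

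Reactive astrocyte genes (16 tested, 15 above 0) had a median difference of 0.22, which was -0.10 without 4-week array 2, and no member with an unadjusted p under 0.05. Gfap, the intermediate filament of astrocytes, was 1.23, 1.46, 1.35, 1.34, 1.58 and 1.48 after regular diet and 0.48, 0.88, 2.00 and 0.89 at 4 weeks, an even level over the 6 arrays within the 4-week range. Its difference was 0.35 (SE 0.32), and its other probe gave -0.23. Vim and Serpina3n differed by 0.13 [1.35 to 2.97] and 0.53 [1.84 to 2.84]. Of 14 homeostatic astrocyte genes, 12 were below 0, with a median of -0.13, which turned to 0.03 without untreated array 1 and 4-week arrays 2 and 3. Gjb6, connexin 30 of astrocyte gap junctions, alone in its list had no overlap (4.09% of all named genes on the lower side), with -0.44, -0.77, 0.16, 0.12, -0.12 and -0.13 after regular diet and 0.56, 0.73, 0.86 and 0.59 at 4 weeks. The difference was -0.88 (SE 0.19, adjusted p = 0.081 in limma), and its 2 probes were alike (-0.96 and -0.88). Aqp4, the water channel, differed by 0.59 [-0.04 to 0.93] (SE 0.32), the glutamate transporters Slc1a2 and Slc1a3 by -0.45 [-1.11 to 0.10] and -0.25 [0.32 to 1.47], and Gja1, connexin 43, by -0.17 [-0.66 to 0.36]. The matrix, S100 and annexin genes had a median of 0.06 over 18 members, with 0.23 [1.21 to 3.25] for Timp1, an inhibitor of metalloproteinases, -0.22 [1.00 to 2.85] for Lgals1, 0.25 [0.87 to 2.88] for S100a4 and -0.41 [1.29 to 2.17] for S100a10. The sign turned without untreated array 1 and 4-week arrays 2 and 3 for Timp1 (-0.14), Vim (-0.04) and Gja1 (0.37), and under quantile normalization for Timp1 (-0.07) and Vim (-0.14).

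Of 14 trophic factors, 6 had a difference above 0, with a median of -0.14, which turned to 0.07 without untreated array 1 and 4-week arrays 2 and 3, to 0.13 without 4-week array 3 and to 0.03 without regular-diet array 5. Igf1, a growth factor for oligodendrocytes, was 5.24 and 5.63 on arrays 1 and 2 and 2.81, 2.07, 3.08 and 1.39 on arrays 3 to 6, against 3.70, 1.11, 3.10 and 2.94 at 4 weeks. The difference was 0.66 (SE 0.75), but it was 0.05 without untreated array 1 and 4-week arrays 2 and 3 and -0.0062 under quantile normalization. Cntf differed by 0.49 [1.33 to 2.22] and Fgf2, which keeps precursors dividing, by -0.74 [-0.42 to 0.92] (SE 0.41). Bdnf, a neurotrophin, was 0.39 at most on the 6 arrays and 1.53, 0.45, -0.73 and 1.13 at 4 weeks, and differed by -0.98 [-1.14 to 0.39] (SE 0.43, adjusted p = 0.18 in limma). Without the 3 arrays with the lowest share of probes well above background, Bdnf (-1.71, adjusted p = 0.037 in limma) and Fgf2 passed the test, which is 2 of the 14 (14.3%) against 1.82% of all named genes on the lower side. For both, the lowest 4-week values were on the arrays left out, so these calls are no independent evidence.

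All 16 neuronal genes tested were lower after regular diet, with a median of -0.59. There were 7 with an unadjusted p under 0.05 on the lower side (13.1% of all named genes) and 1, Gad1, without overlap (4.09% of all named genes on that side). Syt1, the calcium sensor of synaptic vesicles, was -0.29, -0.89, -0.04, -0.21, -0.54 and -0.92 after regular diet and 0.99, 0.60, -0.36 and 0.79 at 4 weeks. Here 4-week array 3 was apart from the other three, and the untreated arrays were 0.00, -0.24 and 0.24. The difference was -0.99 (SE 0.31, adjusted p = 0.11 in limma), and without the 3 arrays with the lowest share of probes well above background Syt1 passed the test (-1.38, adjusted p = 0.037 in limma), 1 of the 16 (6.25%) against 1.82% of all named genes. Its lowest 4-week values (0.60 and -0.36) were on the arrays left out, so this call is no independent evidence. Gad1, which makes GABA, was -0.92 to -0.23 after regular diet and 0.00 to 0.56 at 4 weeks, a difference of -0.84 (SE 0.21, adjusted p = 0.087 in limma). Camk2a, a kinase of excitatory synapses, was -1.38, -1.29, -0.12, -1.99, -1.74 and -2.18, against -0.19, 0.38, -0.67 and 0.17, a difference of -1.37 (SE 0.40, adjusted p = 0.099 in limma). Snap25, Nefl and Rbfox3 differed by -0.88 [-0.96 to 0.04], -0.60 [-1.07 to 0.71] and -0.52 [-1.44 to 0.08]. Counted over the list, 12, 15, 1, 4, 9 and 15 of the 16 lay below all 4-week arrays, where 28.6, 30, 18.4, 20.1, 20.2 and 28.6% of all named genes did. How much cortex or other grey matter each sample held was not measured other than by these genes, and their part in the other results was not tested.

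Nuclear genes of the respiratory chain were also lower on average. All 18 tested were lower after regular diet, with a median of -0.38, 9 had an unadjusted p under 0.05 (13.1% of all named genes on that side), and none was called. The median was -0.21 without untreated array 1 and 4-week arrays 2 and 3. Ndufs3, of complex I, alone in its list had no overlap (4.09% of all named genes on the lower side), with -0.41 to 0.02 after regular diet and 0.11 to 0.55 at 4 weeks. Ndufs1, Sdha, Uqcrc1 and Atp5b differed by -0.28 [-0.55 to -0.09], -0.16 [-0.68 to -0.04], -0.31 [-0.36 to 0.12] and -0.40 [-0.49 to -0.14]. Of 14 genes of nodes and paranodes, 4 had a difference above 0, with a median of -0.30. The axonal paranode genes Cntnap1 and Cntn1 differed by -0.34 [-0.41 to 0.30] and -0.17 [-0.80 to 0.02]. Nfasc, with forms in both axons and oligodendrocytes, differed by 0.69 [-1.64 to 0.76] on its brightest probe and by -0.24 on another. Cntn2, of the juxtaparanode, differed by 0.34 and was -3.27, -3.23, -2.28, -0.44, -0.79 and 0.28 on the 6 arrays, in the order of the myelin genes.

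Markers of other cell types in the dissected tissue varied from array to array. Of 11 choroid plexus genes, all were lower on average after regular diet, with a median of -0.55 and none with an unadjusted p under 0.05. The median turned to 0.89 without untreated array 1 and 4-week arrays 2 and 3, and to 0.22 without 4-week array 3. The list median was -2.37, -1.02, 1.44, 2.95, -0.70 and 0.43 on the 6 arrays and -2.56, 1.51, 3.07 and 0.45 at 4 weeks. Ttr, transthyretin, which the choroid plexus makes in large amounts, ran from -3.59 to 3.03 after regular diet and from -2.83 to 3.51 at 4 weeks, and the untreated arrays ran from -2.45 to 1.32. Kl, Folr1 and Kcne2 differed by -1.21 [-2.39 to 3.02], -0.58 [-1.43 to 2.52] and -0.55 [-3.24 to 3.67], each with an SE above 0.8. All 3 turned without untreated array 1 and 4-week arrays 2 and 3 (0.16, 0.89 and 1.39), as did Ttr (from -1.14 to 0.73). Ependymal genes (8 tested, 4 above 0) had a median of 0.15, which was -0.55 without 4-week array 1 and 1.13 without untreated array 1 and 4-week arrays 2 and 3, with 0.36 [-1.05 to 0.66] for the ciliogenesis factor Foxj1 and 0.33 [-2.82 to 0.24], 0.33 [-2.48 to 0.43] and -0.03 [-1.32 to 0.61] for Ccdc153, Tmem212 and Rarres2. The list median was -1.55 on regular-diet array 1 and -2.02 on 4-week array 1, and it lay between -0.53 and 1.05 on the other arrays of both groups.

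Of 19 endothelial genes, 3 had a difference above 0, with a median of -0.22, which turned to 0.10 without untreated array 1 and 4-week arrays 2 and 3. Pecam1, the adhesion molecule CD31, alone in its list had no overlap (-0.66 to 0.07 against 0.08 to 0.53, where 4.09% of all named genes had none on the lower side) and differed by -0.51 (SE 0.16, adjusted p = 0.11 in limma). Cldn5, Flt1 and Slco1a4 differed by -0.56 [-1.44 to 0.47], -0.00 [-0.31 to 0.81] and -0.18 [-0.61 to 0.21]. Without untreated array 1 and 4-week arrays 2 and 3, these were -0.03, 0.20 and -0.21. On arrays 1 and 2, 14 and 9 of the 19 lay below all 4-week arrays (28.6 and 30% of all named genes). Pericyte and fibroblast genes (11 tested) had a median of -0.01, with -0.02 [-0.63 to 0.34], 0.05 [-0.76 to 0.21], 0.10 [-0.39 to 0.33] and 0.13 [-0.21 to 0.20] for Pdgfrb, Rgs5, Kcnj8 and Abcc9. The 5 red blood cell genes tested had a median of -0.28, and Hba-a1, an alpha globin with a near-identical copy, ran from -0.66 to 0.81 and from -0.45 to 1.37. The 6 lymphocyte genes tested had a median of 0.08, and Cd3e of T cells differed by -0.05 [0.12 to 0.66]. Of 6 genes of neutrophils and monocytes, 5 were below 0, with a median of -0.50. The neutrophil genes S100a8 and S100a9 ran from -1.19 to 1.13 and from -3.03 to 0.16 after regular diet and from -0.39 to 1.12 and from -1.28 to 1.36 at 4 weeks. The S100a9 probe was not well above background on regular-diet array 2, which had the -3.03, and that of S100a8 was so on 4 of the 6 and 2 of the 4 arrays. The neutrophil granule gene Camp did not pass the filter on dim probes, nor did Cd3d, Cd3g and Cd8a among lymphocyte genes and Lcn2 among astrocyte genes, and no probe was named Ly6g or Lif. The part of these cell types in the differences was not tested.

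Of the genes that the study names in its results and tables, 63 were tested, and none was called or free of overlap. As that list was chosen on these samples, its direction is not independent evidence. A total of 57 had a difference above 0, with a median of 0.58, and 4 (Elovl1, Lyz2, Cers2 and Lyz1) had an unadjusted p under 0.05 on the higher side, against 6.58% of all named genes. Gdf15, at -1.15, was the lowest of the list. Erbb3, a neuregulin receptor of oligodendrocytes, was -1.89, -2.27 and -2.06 on arrays 1 to 3 and 0.04, -0.01 and 1.1 on arrays 4 to 6, against -2.41 to -1.65 at 4 weeks, and its probe was not well above background on regular-diet array 2 and 4-week array 2. Klk6, a protease of mature oligodendrocytes, had -1.73, -2.57 and -2.08, then 0.42, 1.1 and 0.84, with -3.41 to -1.25 at 4 weeks. Axl, a phagocytic receptor, had 3.13 and 3.44 on arrays 1 and 2 and 1.09 to 1.37 on the others, against 0.92 to 1.87 at 4 weeks. Over the list, 25, 26, 4, 32, 32 and 33 of the 63 lay above all 4-week arrays on regular-diet arrays 1 to 6, where 18.1, 22.4, 11.2, 15.1, 13.3 and 17.4% of all named genes did. On array 3 the share of the list was thus below that of all named genes.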

How the data were processed

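Levels of corpus callosum RNA were read on Agilent mouse arrays of the 4x44K design in 1 colour. Spot intensity, background-subtracted but not yet scaled between arrays, was deposited as written by Agilent Feature Extraction (version 11.0.1.1 in the submitters' processing notes). The authors further gave processed log2 values, which GeneSpring had scaled by the 75th percentile. These values were found to be relative to the median of the 3 untreated arrays, probe by probe, and this baseline cancels in each difference. This table was used for all main values. Each column was matched to 1 scanner file by correlation over 21976 probes (lowest r 0.99998, next best array at most 0.89), which supplied the background flags.

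Of 41153 probes, 27459 (66.7%) were given a gene name, for 18737 genes, by matching their accession to a RefSeq gene table (GRCm38.p6). Probes had to be well above background throughout at least 1 of the 4 labelled groups, which left 27778 probes. One model covered all 4 groups (R 4.3.3, limma 3.58.1, 12 residual degrees of freedom, prior 2.33), with Benjamini-Hochberg adjustment over all probes. The code was tested on simulated data. A gene is given by its brightest probe.

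Genes named are the 10 of the lowest p in each direction among those with no overlap, the first 4 members of each list and genes the study names. Some results that this rule selects are not reported here. Others, chosen after their values were seen, are named as examples. The members, the lists and the tests were chosen with earlier results of these data known. No set test was run.

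Alternatives were scanner signals, normexp (offset 50) on median signals with quantile normalization (mean signals are not in the files), quantile normalization, median centring, other filters, the 10 arrays alone, group-specific array weights, slide as fixed or random block (statmod 1.5.0), a block for the replicate number, leaving out each array in turn, the methods' test, the recorded array assignment and other thresholds.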

Additional observations from a re-analysis of the deposited data

Results flagged for a closer look

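In groups of 4 or 6 arrays, a value is given here where the highest or lowest array stood far from the others relative to the whole range of the group (Dixon's criterion at 95%). It was applied to 64 named genes and to the list medians, and 12 of 194 groups met it (6.19%), where chance gives about 1 in 20. On 4-week array 3 these were Bex1 (-0.16), Bmp4 (-0.14), Elovl1 (-0.86) and Trib3 (6.06), and the list medians of MHC presentation (2.57), lysosomal genes (0.73), p53 targets (1.12) and matrix genes (1.62). On 4-week array 2 they were P2ry12 (0.78) and Gpnmb (1.74), and on 4-week array 1 Pecam1 (0.53). On regular-diet array 5 it was Oas2 (2.28), an interferon-induced gene at 3.68 to 4.06 on the other regular-diet arrays. The share of probes well above background was 59.2% on 4-week array 3, the lowest of the 10 arrays, and its part in these values was not tested.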

How the results depend on the processing

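The count of called genes and transcripts (1, with no named gene) was 0 under normexp with quantile normalization, quantile normalization, a filter on all arrays of both groups, group-specific array weights, slide as a fixed block and the recorded array assignment. It was 4 with median centring, 8 with no filter on dim probes, 8 with slide as a random block (correlation 0.10), 3 in the methods' test, 141 (134 higher, 7 lower, 32 named) in the fit of the 10 arrays alone, 541 at an adjusted p under 0.10 and 983 without the 3 low-share arrays (those with the lowest share of probes well above background). Leaving out single arrays gave 0 to 1506. It was 0 with the replicate number as a block. Same-numbered arrays did not deviate together (r of 0.25, -0.14, -0.25 and -0.07 for numbers 1 to 4, with own number best only for number 1), so the numbers do not pair the arrays.

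Named genes with no overlap numbered 1700 higher and 2277 lower without the 3 low-share arrays, and 399 higher and 364 lower under quantile normalization. Transcripts without a name numbered 163 higher and 135 lower with the filter on both groups, and 296 lower under normexp and 817 lower without the 3 low-share arrays. For 64 of the genes, with 1470 alternatives, 1418 kept their direction with no call, 42 were called and 10 changed sign. The sign turned with the replicate block for Mog (-0.089), Mag (-0.11) and Hmgcs1 (-0.36), under quantile normalization for Hmgcs1 (-0.057), Trem2 (-0.11), Cxcl10 (-0.30) and Igf1 (-0.0062), and for Hmgcs1 with regular-diet array 4, 5 or 6 left out (range over all arrays left out, -0.075 to 0.36). Over all 174 genes named in the report, the sign turned in 133 of 3821 differences, for 50 genes. Under quantile normalization it turned for 19 genes, with further Abca1 (-0.12), Ccl3 (-0.40), Ccl4 (-0.32), Itgax (-0.14), Plin2 (-0.21), Ifit1 (-0.08), Isg15 (-0.40), Timp1 (-0.07), Vim (-0.14), Top2a (-0.11), Hmox1 (-0.52) and Cntn2 (-0.06) now lower. Without the 3 low-share arrays it turned for 16, namely Ddit3 (0.05), Folr1 (0.89), Kcne2 (1.39), Kl (0.16), Ttr (0.73), Gja1 (0.37), Nqo1 (0.21), S100a8 (0.05), Sdha (0.26), Flt1 (0.20), Pdgfrb (0.20), Rarres2 (0.98), Timp1 (-0.14), Top2a (-0.52), Vim (-0.04) and Hmox1 (-0.20). Leaving out 4-week array 1 turned Acsl1, Bax, Bcas1, Ccdc153, Foxj1, Isg15, Kcnj8, Olig2, Ppp1r14a, Rgs5 and Tmem212, and leaving out 4-week array 2 turned Abca1, Cd3e, Flt1, Hmox1, Pdgfrb, Plin2, Rarres2, Sdha, Timp1, Top2a and Vim. Leaving out 4-week array 3 turned Flt1, Folr1, Gja1, Kcne2, Nqo1, Pdgfrb, Rarres2 and Top2a, and leaving out regular-diet array 2 turned Abca1, Cd3e, Hmox1, Isg15, Pdgfrb, Plin2, Rarres2, Timp1, Top2a and Vim. With the replicate block Acsl1, Bcas1, Ccdc153, Cntn2, Elovl6, Fasn, Flt1, Gdf15, Lgals1, Ppp1r14a, Rgs5, S100a4, Sqle and Tmem212 turned too, and with slide as a fixed block Bcas1, Hmox1, Isg15, Lamp2, Olig2, Plin2, S100a4, Timp1, Top2a and Vim did. Of 576 list medians, 568 moved by less than 1 SD and 8 by more, but in 35 of the 576, over 12 lists, the sign turned. A move of less than 1 SD thus does not mean that the direction held. Without the 3 low-share arrays the sign turned for choroid plexus (-0.55 to 0.89), endothelium (-0.22 to 0.10), trophic factors (-0.14 to 0.07), homeostatic astrocytes (-0.13 to 0.03), Nrf2 targets (-0.34 to 0.01) and pericytes and fibroblasts (-0.01 to 0.37). Chemokines and cytokines turned under quantile normalization (0.52 to -0.22), ependyma without 4-week array 1 (0.15 to -0.55), p53 targets without 4-week array 3 (-0.03 to 0.17) and reactive astrocytes without 4-week array 2 (0.22 to -0.10). Without the same 3 arrays, medians that kept their sign but moved over 1.5 times and are not given above were 0.01 for reactive astrocytes, -0.01 for p53 targets, 0.32 for matrix genes, -0.07 for red blood cells, 0.17 for lymphocytes and -0.26 for neutrophils and monocytes. The causes were not tested. With 2 times mixed in 1 group, the spread over the 6 arrays holds any difference between the times, and the number of arrays limits each test.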
